A study of Mus musculus with 8 samples.

Results

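The genes described here encode proteins of calcium cycling through the sarcoplasmic reticulum of heart muscle, the membrane store that releases calcium at each beat. They are 10 genes given by symbol (Atp2a2, Pln, Ryr2, Casq2, Trdn, Jph2, Slc8a1, Hrc, S100a1 and Cacna1c), and all 10 were found by NCBI Gene number among the 18215 gene numbers of the series and were listed in every library. The choice was made by symbol, with earlier results of these data known. Whole mouse heart was sampled in 4 libraries from animals carrying a Carns transgene (TG) and 4 from wild-type animals (WT), and polyadenylated RNA was sequenced. The product of Carns1, carnosine synthase, links beta-alanine to histidine to make the dipeptide carnosine. The promoter that drives the transgene and the age, sex and strain of the mice are not given in the sources used here. The titles number the samples of a group 1 to 4 without saying whether each is a separate animal, so the p-values speak only of the spread among these samples, and that spread may be technical.

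At each beat calcium enters the cardiomyocyte through the L-type channel, whose pore is the product of Cacna1c, and this entry opens the release channel Ryr2 on the facing reticulum membrane. Junctophilin (Jph2) holds both membranes together, while triadin (Trdn) links the release channel to calsequestrin (Casq2), the main calcium buffer of the reticulum lumen. The calcium pump SERCA2 (Atp2a2), held back by phospholamban (Pln), then returns most of the calcium to the store, and the sodium-calcium exchanger (Slc8a1) carries the rest out of the cell. Hrc encodes a histidine-rich calcium-binding protein of the lumen, and S100a1 a small cytosolic calcium sensor that binds both the pump and the release channel.

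The TG libraries held 6261193 to 7897629 expected counts in all and the WT libraries 6277698 to 7778422, so that 3 counts corresponded to 0.380 to 0.479 counts per 1000000 (CPM). Gene levels in CPM are given on library sizes scaled by TMM. The libraries split at the widest gap in their totals into 4 deeper ones (7394143 to 7897629 counts, TG replicates 1 and 3 and WT replicates 1 and 2) and 4 shallower ones (6261193 to 6557621 counts, TG replicates 2 and 4 and WT replicates 3 and 4). This split was drawn after the totals were seen, and it holds 2 libraries of each group on either side. Carns1 lay between 19071 and 24288 CPM in the TG libraries and between 44.5 and 73.3 CPM in the WT libraries. The summed level of 10 cardiomyocyte markers, which include Myh6 and Tnnt2, reached 73462 to 88433 CPM in the TG libraries and 72641 to 88627 CPM in the WT libraries, and none of the 10 was at 0 in any library. The same sum ran from 82499 to 88627 CPM in the deeper and from 72641 to 76483 CPM in the shallower libraries. In whole tissue, fewer cells of a type and less RNA per cell cannot be told apart.

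Per length of transcript the members spanned a wide range of abundance in these hearts. Atp2a2 stood highest at 2515 ± 161 FPKM (fragments per kilobase per 1000000 fragments, as deposited, mean ± SD over all 8 libraries). S100a1 followed at 1957 ± 255 FPKM and Pln at 1742 ± 241 FPKM. The pump thus stood at the top with its peptide inhibitor and the calcium sensor close behind, but S100a1 was above Pln in only 4 of 8 libraries, and Atp2a2 was above S100a1 in 7 of 8. A second tier was formed by the lumen proteins, with Hrc at 415 ± 19.6 FPKM and Casq2 at 400.2 ± 50.8 FPKM, in this order in 5 of 8 libraries. Jph2 came next at 197 ± 15.3 FPKM, followed by the release channel Ryr2 at 66.7 ± 9.87 FPKM. The surface membrane proteins and triadin were the least abundant, with Cacna1c at 18.3 ± 2.37, Trdn at 18.1 ± 5.88 and Slc8a1 at 14.2 ± 2.82 FPKM. Between neighbours in this order, the ranges over the 8 libraries were apart for Pln above Hrc, Casq2 above Jph2, Jph2 above Ryr2 and Ryr2 above Cacna1c, and they overlapped for the other 5 pairs. Together the members took 1.94% to 2.20% of all counts in TG and 1.94% to 2.28% in WT, of which Atp2a2 alone took 1.07% to 1.11% in TG and 1.01% to 1.23% in WT.

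**Figure D1:**
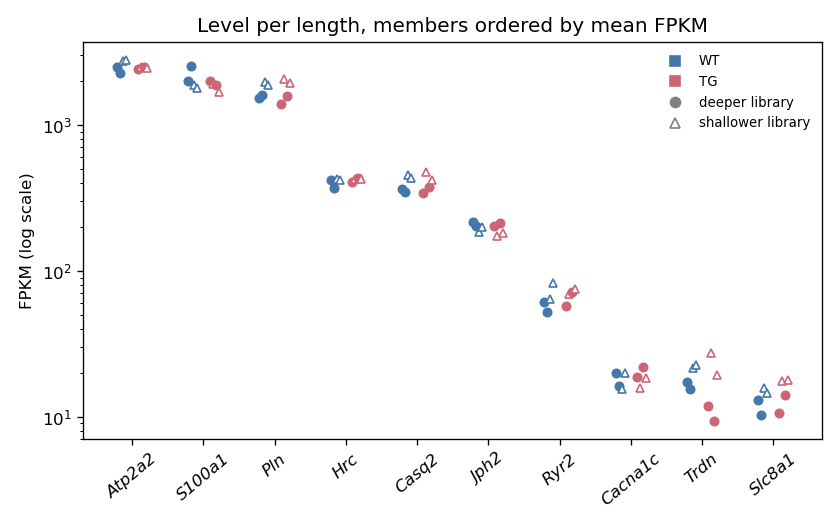
Deposited FPKM on a log axis for the 10 genes, ordered by their mean over 8 libraries, with 1 point for each library (blue WT, red TG, filled circles deeper and open triangles shallower libraries). Atp2a2, S100a1 and Pln form the top tier, and Cacna1c, Trdn and Slc8a1 the lowest, with Trdn the most scattered.

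Of the 10 genes, 8 were matched by symbol to the RefSeq promoter table of mouse assembly GRCm38.p6, and the 250 bases before the annotated start are shown for 4 of them. These 4 were chosen because their library values, given further on, separated the deeper from the shallower libraries, Pln and Casq2 in one direction and Jph2 and S100a1 in the other. Trdn separated them too, but was not among the genes matched. The windows are chr10:53337436-53337685 (Pln, plus strand), chr3:102086165-102086414 (Casq2, plus strand), chr2:163397994-163398243 (Jph2, minus strand) and chr3:90514331-90514580 (S100a1, minus strand), each written 5′ to 3′ along the gene, with motif matches in capitals.
Pln: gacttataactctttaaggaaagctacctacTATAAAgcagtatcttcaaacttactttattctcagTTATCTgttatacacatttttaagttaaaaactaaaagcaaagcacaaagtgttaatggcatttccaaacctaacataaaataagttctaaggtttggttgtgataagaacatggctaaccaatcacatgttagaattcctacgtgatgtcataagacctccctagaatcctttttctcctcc
Casq2: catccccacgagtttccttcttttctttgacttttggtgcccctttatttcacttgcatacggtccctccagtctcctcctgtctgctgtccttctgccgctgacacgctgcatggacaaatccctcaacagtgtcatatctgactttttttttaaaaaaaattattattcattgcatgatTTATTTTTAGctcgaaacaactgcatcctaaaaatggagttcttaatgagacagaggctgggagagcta
Jph2: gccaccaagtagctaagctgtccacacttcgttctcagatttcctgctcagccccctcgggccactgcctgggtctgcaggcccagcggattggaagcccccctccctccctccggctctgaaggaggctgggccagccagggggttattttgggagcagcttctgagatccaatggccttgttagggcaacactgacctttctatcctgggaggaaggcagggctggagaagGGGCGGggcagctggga
S100a1: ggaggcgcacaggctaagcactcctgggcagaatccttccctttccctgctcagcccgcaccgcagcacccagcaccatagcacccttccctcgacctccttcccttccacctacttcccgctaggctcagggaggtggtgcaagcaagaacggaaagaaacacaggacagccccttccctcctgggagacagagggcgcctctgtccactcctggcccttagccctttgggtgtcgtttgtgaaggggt
The capitals mark a TATA box and a GATA element in Pln, a MEF2 site in Casq2 and a GC box in Jph2, while S100a1 has none. GC content was 32.8% in the Pln window and 41.6% in that of Casq2, against 62% for Jph2, 61.6% for S100a1 and a median of 52% over 27025 promoter windows of the same length. The matched windows not shown held 63.2% (Ryr2), 59.6% (Hrc), 51.6% (Cacna1c) and 50.4% (Slc8a1). The log2 differences of these genes, shallower minus deeper libraries, were 0.20, -0.01, -0.22 and 0.38 in that order. Ryr2, with the richest window of the 8, was thus on the higher side, though not past the threshold.

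The motifs were searched on both strands. The box that the general transcription machinery binds was spelled TATAAA. The element of the GATA transcription factors was spelled AGATAA. The M-CAT element, known from muscle genes, was spelled CATTCC. For the GC box the letters searched were GGGCGG. The E-box, which was not put in capitals, was any match to CANNTG. The MEF2 site and the CArG box were searched by their usual degenerate forms. The capitals do not overlap each other. The TATA box of Pln lies at bases -219 to -214 from the start and its GATA element at -183 to -178. The MEF2 site of Casq2, a binding motif of a muscle transcription factor family, lies at -69 to -60, and the GC box of Jph2 at -17 to -12. Among the 8 matched members, 1 held a TATA box (13% of all promoters did), 1 a MEF2 site (3.01%), 2 a GATA element (10.3%), 2 a GC box (32.9%) and 7 an E-box (66.0%), and none held a CArG box (1.40%) or an M-CAT element (12.6%). A match describes letters in this window only.

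The first comparison asked whether any calcium cycling transcript differed between transgenic and wild-type hearts. None of the 10 passed the threshold in either direction (edgeR quasi-likelihood test, Benjamini-Hochberg adjusted p = 0.9996 for every member), where 2 of 12670 genes (0.0158%) did, namely Carns1, higher in TG, and Lrrc15, lower in TG. None of the members had an unadjusted p under 0.05, against 3.49% of all genes tested, and DESeq2 called 0 members, against 0.118% of genes. In all 10 the TG and WT libraries overlapped, while the groups did not overlap in 2.53% of genes. The members' log2 fold changes, TG relative to WT, had a median of 0.01 with 6 higher and 4 lower, beside a median of -0.002 over all genes. Their median absolute size was 0.07, and that of all genes 0.10. The count of genes called was 1 without TG replicate 2, TG replicate 4, WT replicate 2 or WT replicate 3, and 3 without TG replicate 3. In simulated data of 4 against 4 libraries the test recovered 29.6% of 1.5-fold and 78.8% of 2-fold changes. The changed genes were drawn at random from all genes tested and no depth classes were built in, so these shares are not those of the members.

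**Figure D2:**
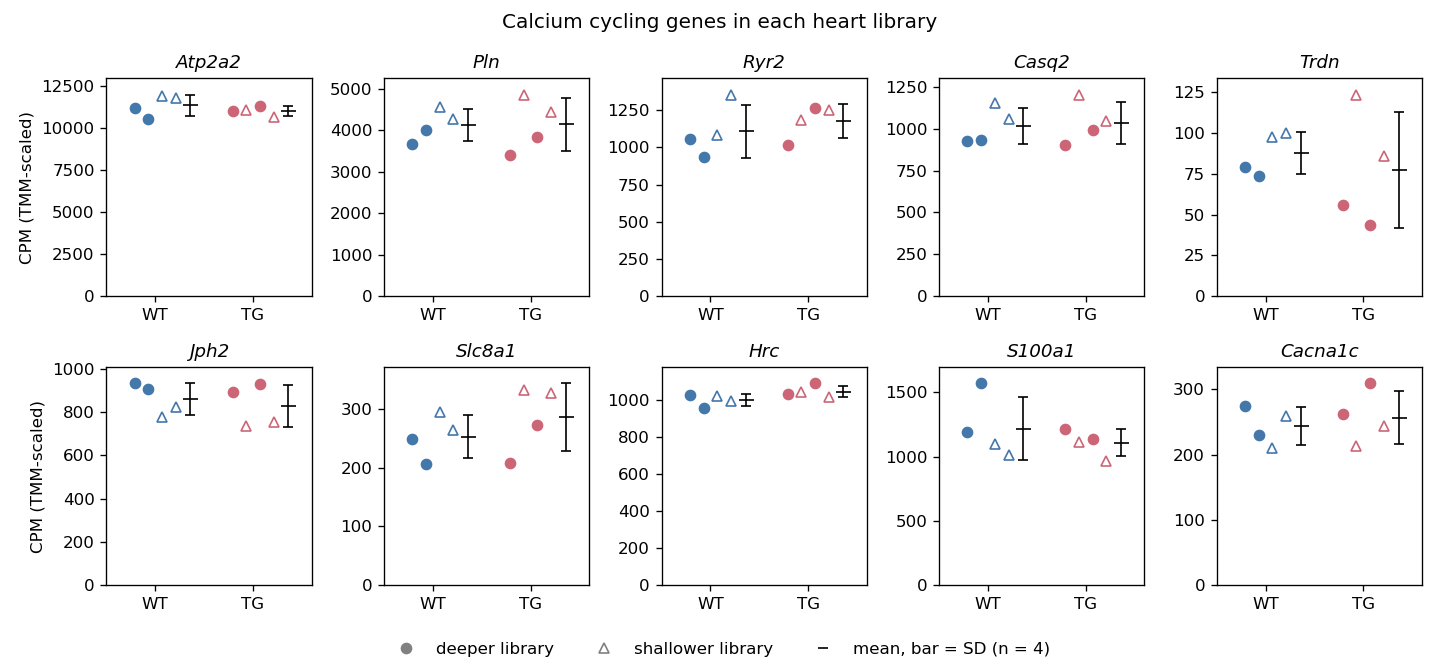
TMM-scaled CPM of each gene in the 4 WT (blue) and 4 TG (red) libraries, with the mean and SD (n = 4) at the right of each group. Filled circles are deeper and open triangles shallower libraries. The groups overlap in all 10 panels, and in Pln, Casq2 and Trdn the triangles lie above the circles, in Jph2 and S100a1 below them.

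Neither the pump nor its regulators passed the test between the groups. Atp2a2 (NCBI Gene 11938) stood at 11007, 11030, 11298 and 10626 CPM in TG replicates 1 to 4. In WT replicates 1 to 4 it stood at 11163, 10538, 11906 and 11754 CPM. The WT libraries held both the lowest and the highest value, and the highest of all 8 was 1.13 times the lowest. The log2 fold change of Atp2a2 was -0.05 (SE 0.10, 95% interval -0.26 to 0.17), which corresponds to a TG level between 0.834 and 1.13 times that of WT. Pln (NCBI Gene 18821) stood at 3410, 4859, 3841 and 4450 CPM in the 4 TG libraries, in order of replicate, and at 3657, 4005, 4569 and 4272 CPM in WT. TG replicate 1 held the lowest and TG replicate 2 the highest value, and all WT libraries lay between these. Its group means, 4140 ± 642 CPM in TG against 4126 ± 388 CPM in WT (SD, n = 4 each), differed by less than the spread within either group. S100a1 (NCBI Gene 20193) stood at 1218, 1110.5, 1135 and 969 CPM in TG, against 1192, 1569, 1095 and 1014 CPM in WT. It had means of 1108 ± 103 CPM in TG against 1218 ± 245 CPM in WT (SD, n = 4 each), and its log2 fold change was -0.14 (SE 0.14). WT replicate 2, at 1569 CPM, was the highest of the 8, and without it the log2 fold change was 0.01.

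The ratio of inhibitor to pump transcript, which is not that of the proteins, can be read within a library. The scaling between libraries then cancels, but a difference between depth classes that differs from gene to gene does not. The ratio of Pln to Atp2a2 FPKM was 0.579, 0.823, 0.635 and 0.784 in TG replicates 1 to 4. It was 0.613, 0.710, 0.718 and 0.679 in the WT replicates. The TG libraries held both extremes, and the WT libraries lay between them. The means were 0.705 ± 0.117 in TG against 0.680 ± 0.048 in WT (SD, n = 4 each, exact two-sided permutation p = 0.771, also 0.771 after Benjamini-Hochberg adjustment over the 2 ratios tested). The log2 difference was 0.04 (SE 0.13), and the smallest p that the 70 arrangements allow is 0.0286. The ratio of Pln to Atp2a2 ran from 0.579 to 0.710 in the deeper and from 0.679 to 0.823 in the shallower libraries. Within depth classes its log2 difference, TG relative to WT, was -0.12 in the deeper and 0.20 in the shallower libraries. The ratio of Slc8a1 to Atp2a2, the other main route of calcium removal, was 0.00609 ± 0.00131 in TG against 0.00520 ± 0.000498 in WT (SD, n = 4 each, exact two-sided permutation p = 0.286, adjusted 0.571). Its log2 difference of 0.21 (SE 0.18) was 0.04 in the deeper and 0.37 in the shallower libraries. Neither ratio passed the threshold.

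**Figure D3:**
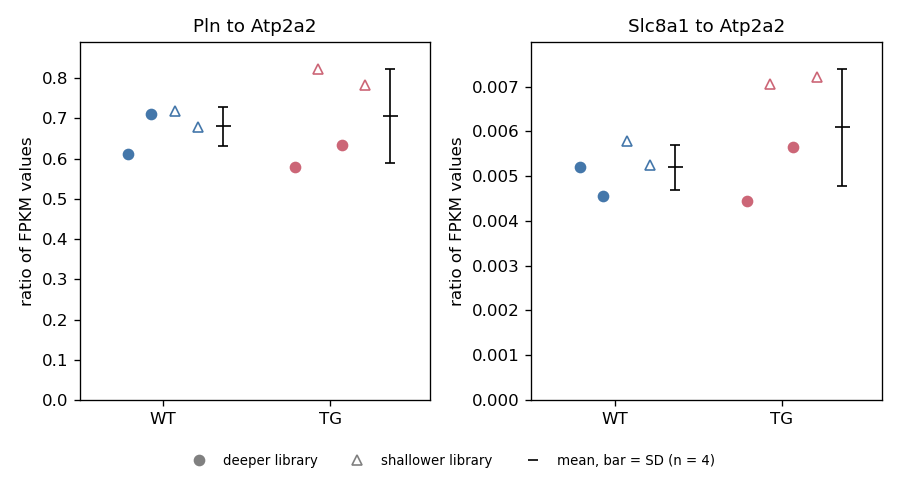
Ratio of Pln to Atp2a2 (left) and of Slc8a1 to Atp2a2 (right), from deposited FPKM, in each library, with mean and SD (n = 4). Blue is WT and red TG, filled circles are deeper and open triangles shallower libraries. The 2 shallower TG libraries are the highest points in both panels, and the deeper TG library of replicate 1 the lowest.

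Neither gene of the release channel complex passed the test, and triadin was the more variable of the pair. Ryr2 (NCBI Gene 20191) stood at 1015, 1186, 1261 and 1251 CPM in TG, against 1054, 934, 1083 and 1353 CPM in WT, so that the lowest and the highest value were both in WT. Its means were 1178 ± 114 CPM in TG against 1106 ± 177 CPM in WT (SD, n = 4 each), and its log2 fold change was 0.09 (SE 0.13). Trdn (NCBI Gene 76757) stood at 56.0, 123, 43.7 and 85.7 CPM in TG, against 79.3, 73.8, 97.8 and 99.6 CPM in WT. The TG libraries held the highest and the 2 lowest values, a 2.83-fold span, and the WT libraries lay within it. The means were 77.2 ± 35.5 CPM in TG against 87.6 ± 13 CPM in WT (SD, n = 4 each), and the log2 fold change was -0.19 (SE 0.25, 95% interval -0.74 to 0.37). Among the 4 deeper libraries alone Trdn was lower in TG by edgeR (log2 fold change -0.62, Benjamini-Hochberg adjusted p = 0.043), where 0.463% of genes were called. Among the 4 shallower libraries its log2 fold change was 0.08. The test of the difference between these 2 values gave 0.70 on the log2 scale (SE 0.23, edgeR interaction term, unadjusted p = 0.00862, Benjamini-Hochberg adjusted p = 0.856). By that test 0 of 12670 genes passed and 625 had an unadjusted p under 0.05. Without TG replicate 2 the log2 fold change of Trdn over all the other libraries was -0.50, and without TG replicate 3 it was 0.01.

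Neither calcium-binding protein of the lumen passed the test, and Hrc had the smallest SE of all members. Hrc (NCBI Gene 15464) stood at 1034, 1042, 1090 and 1018 CPM in TG, against 1026, 955, 1024 and 996 CPM in WT. Of the TG libraries, 3 were above every WT library, and TG replicate 4 lay below WT replicates 1 and 3. The Hrc means of 1046 ± 31.1 and 1000.2 ± 33.2 CPM (SD, n = 4 each) gave a log2 fold change of 0.07 (SE 0.09, 95% interval -0.13 to 0.26). Casq2 (NCBI Gene 12373) stood at 901, 1203, 989 and 1044 CPM in TG, against 928, 931, 1151 and 1056 CPM in WT. High and low libraries occurred in both groups in like number, and the means were 1034 ± 127 CPM in TG against 1017 ± 107 CPM in WT (SD, n = 4 each). Its log2 fold change was 0.02 (SE 0.12).

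At the junction and the surface membrane the differences were likewise within the spread between libraries. Jph2 (NCBI Gene 59091) stood at 894, 738, 930 and 755 CPM in TG, against 933, 908, 776 and 824 CPM in WT, with 2 high and 2 low libraries in each group. Its means were 829 ± 96.9 and 860 ± 73.1 CPM (SD, n = 4 each), a log2 fold change of -0.05 (SE 0.11). Slc8a1 (NCBI Gene 20541) stood at 209, 333, 273 and 328 CPM in TG, against 248, 206, 294 and 264 CPM in WT. TG replicates 2 and 4 were above every WT library, and TG replicate 1 was near the lowest WT value. Its log2 fold change of 0.18 (SE 0.15, 95% interval -0.16 to 0.51) was the largest of the members on the higher side over all 8 libraries, and the upper end of that interval is a 1.42-fold level in TG. Without TG replicate 1 it was 0.30 and without WT replicate 2 it was 0.09. Cacna1c (NCBI Gene 12288) stood at 262, 212, 309 and 243 CPM in TG, against 274, 231, 209 and 260 CPM in WT. TG replicate 3 was the highest of these, and TG replicate 2 and WT replicate 3 were the lowest. Cacna1c had means of 257 ± 40.4 CPM in TG against 243 ± 29.1 CPM in WT (SD, n = 4 each) and a log2 fold change of 0.08 (SE 0.13). Within depth classes the log2 fold changes of the 9 members other than Trdn lay between -0.23 (S100a1) and 0.19 (Ryr2) in the deeper libraries and between -0.13 (Atp2a2) and 0.25 (Slc8a1) in the shallower ones, and none of these passed the threshold (edgeR, Benjamini-Hochberg).

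**Figure D4:**
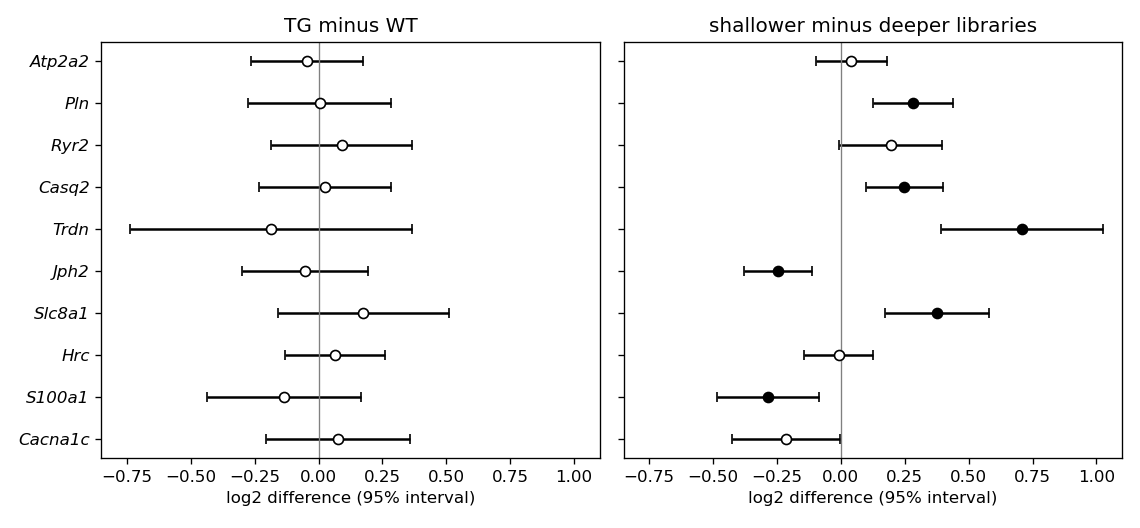
Log2 differences with 95% intervals from edgeR for each gene, TG minus WT (left) and shallower minus deeper libraries (right, with group in the fit). Filled points passed the adjusted threshold. No point is filled on the left, where every interval covers 0, and 6 are filled on the right, with Trdn at 0.71 and S100a1 at -0.28 at the ends.

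More members passed the test between the deeper and the shallower libraries than between the genotypes, and so did more genes in general. With group kept in the fit, 6 of 10 passed the threshold (edgeR, Benjamini-Hochberg), 4 higher and 2 lower in the shallower libraries, where 32.2% of all genes passed (17.8% higher and 14.4% lower). The values of 5 members did not overlap between the classes, against 29.9% of genes. Trdn ran from 43.7 to 79.3 CPM in the deeper and from 85.7 to 123 CPM in the shallower libraries, and Pln from 3410 to 4005 and from 4272 to 4859 CPM. Casq2 ran from 901 to 989 CPM in the deeper and from 1044 to 1203 CPM in the shallower libraries. In these 3 genes every shallower library, of either genotype, was above every deeper one. Jph2 lay lower in all shallower libraries (738 to 824 CPM) than in the deeper ones (894 to 933 CPM), as did S100a1 (969 to 1110.5 against 1135 to 1569 CPM). The log2 differences, shallower minus deeper, were 0.71 for Trdn (SE 0.15, edgeR, adjusted p = 0.00435), 0.38 for Slc8a1 (adjusted p = 0.011), 0.28 for Pln (0.012), 0.25 for Casq2 (0.018), -0.25 for Jph2 (0.011) and -0.28 for S100a1 (0.034). For the remaining 4 genes they were 0.20 for Ryr2, 0.04 for Atp2a2, -0.01 for Hrc and -0.22 for Cacna1c, with adjusted p between 0.105 and 0.934.

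Some of these calls changed when 1 library was left out. Without TG replicate 1 the members called were Trdn, Slc8a1 and Jph2, while the genes called in all fell from 4078 to 2581. Pln then stood at 0.23 (edgeR, Benjamini-Hochberg adjusted p = 0.056) and Casq2 at 0.22 (0.070). Casq2 also missed the threshold without TG replicate 2 (0.21) or WT replicate 3 (0.22). S100a1 missed it without any one of TG replicates 1 and 4 and WT replicates 2, 3 and 4. Its log2 differences then lay between -0.29 and -0.18, beside -0.28 with all libraries. Ryr2 passed without TG replicate 3 (0.28), and Cacna1c without WT replicate 4 (-0.30). On total counts without TMM scaling, Jph2 stood at -0.17 (adjusted p = 0.051) and S100a1 at -0.21 (0.070).

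The members' order in this comparison followed the GC content of their transcripts. Trdn (36.8% GC), Pln (38.6%) and Slc8a1 (40.2%) were the poorest in GC and the most raised in the shallower libraries, and Jph2, the richest at 61.8%, was among the lowest there. Spearman's correlation of GC content with the log2 difference was -0.90 over the 10 members and -0.71 over 12264 genes with a GC value, described across genes that share the same 8 libraries. In 5 equal groups of genes from the poorest to the richest in GC, the median log2 difference of all genes was 0.45, 0.20, -0.03, -0.18 and -0.24. The same correlation with the TG to WT fold change was -0.09 over the members and -0.14 over all genes. With GC and length offsets in the fit, 1 member passed, Cacna1c (-0.26, edgeR, Benjamini-Hochberg adjusted p = 0.039), where 5.38% of genes did. Pln then stood at -0.22 (adjusted p = 0.058), Trdn at 0.13, Casq2 at 0.08 and Jph2 at -0.02. These offsets were estimated from the same libraries and take out part of any difference that follows GC content. The summed markers of fibroblasts (1272 to 1357 CPM deeper, 1489 to 2012 shallower) and of smooth muscle and pericytes (866 to 926 deeper, 1049 to 1525 shallower) also separated the classes, opposite to the cardiomyocyte sum. Those of endothelial cells (1413 to 1675 CPM deeper, 1279 to 1716 shallower), macrophages (210 to 351 deeper, 262 to 369 shallower) and erythroid cells (13424 to 29357 deeper, 18948 to 29055 shallower) overlapped. The part of any of these cells in the result was not tested.

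**Figure D5:**
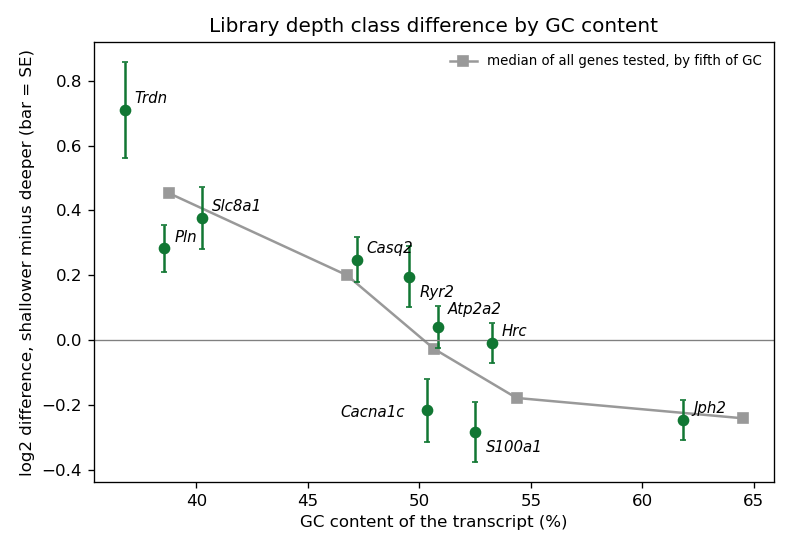
Log2 difference between shallower and deeper libraries (edgeR, bars are SE) against transcript GC content in percent, for the 10 genes (green) and as the median of all tested genes in each of 5 equal groups by GC content (grey squares, placed at the middle of each group's range). Trdn at 36.8% GC lies at 0.71, above the median of 0.45 in the poorest group, and Jph2 at 61.8% lies at -0.25, near the downward line of all genes. Pln, Cacna1c and S100a1 lie below that line, and Ryr2 and Hrc above it.

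Across the 8 libraries the members did not move as a single block. Of their 45 pairs, 25 had a positive and 20 a negative Pearson correlation of log2 CPM, with a median of 0.16. Casq2 and Pln were the most alike (r = 0.93), followed by Slc8a1 and Casq2 (0.84). Jph2 ran opposite to Pln (-0.88) and to Casq2 (-0.87), and S100a1 opposite to Ryr2 (-0.84). These correlations are descriptions over 8 libraries that share the split by depth. The mean of the members' centred log2 CPM was lowest in TG replicate 1 (-0.12) and highest in TG replicate 2 (0.11). Of 8697 genes with a mean of at least 10 CPM, the 5 most like this mean profile were Wdr43 (r = 0.98), Msantd4 (0.98), Cbx3 (0.97), Chd6 (0.97) and Rhot1 (0.97, over 8 libraries). In each of these 5 genes all shallower libraries lay above all deeper ones, where the classes did not overlap in 29.9% of all genes. The profile itself was negative in every deeper and positive in every shallower library, so this separation follows from how the 5 genes were chosen.

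Beyond the members, 102 other calcium handling genes in 10 lists were followed, of which 89 were tested. None passed the threshold in either direction (edgeR, Benjamini-Hochberg), beside the 0.0158% of all genes given above, and 4 had an unadjusted p under 0.05, where 3.49% of all genes did. The median log2 fold change of the 89 was 0.004, with 45 higher and 44 lower. Those 4 were Sypl2, Sln, Cacna2d2, an accessory subunit of the L-type channel, and Arrb2, and the unadjusted edgeR p was 0.033 for Sln, 0.035 for Cacna2d2 and 0.049 for Arrb2. Sln was the only gene tested of the 4 small peptide regulators of the pump. Sypl2, or mitsugumin-29, a membrane protein of the junction between T-tubule and reticulum, stood at 3.26, 2.86, 2.64 and 3.57 CPM in TG, against 1.42, 2.18, 1.05 and 0.917 CPM in WT. Every TG library of Sypl2 was above every WT library, at a low level, and its log2 fold change was 1.12 (SE 0.30, edgeR, unadjusted p = 0.0028, Benjamini-Hochberg adjusted p = 0.762). Sln, which encodes sarcolipin, an inhibitor of the pump found mainly in atria, stood at 0.261, 79.8, 0 and 14.9 CPM in TG, against 6.18, 0, 0.15 and 4.13 CPM in WT. TG replicate 2 stood far above the rest in Sln and also in the sum of 5 atrial markers, of which Sln is 1, at 856 CPM against 61.3 to 260 CPM in the other libraries. TG replicate 2 also held 373 CPM of 6 summed adipocyte markers, against 1.39 to 27.0 CPM elsewhere. The part of these cells in the members' values was not tested.

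Among the pumps and exchangers other than the members, 6 of 8 were tested and 0 called, with the most abundant by FPKM, Atp2a3, a SERCA isoform, at 37.0 ± 5.56 CPM in TG against 38.6 ± 7.72 CPM in WT (SD, n = 4 each). Of 14 release channels and partners, 10 were tested and 0 called. Fkbp1a, which encodes a binding protein of the release channel, stood at 309 ± 20.7 and 327 ± 17.1 CPM in TG and WT (SD, n = 4 each). The other release channels Ryr1 and Ryr3 were at or below 1.29 CPM in every library and were not tested. All 7 lumen and counter-ion genes were tested and 0 called. The most abundant by FPKM, Tmem38a, a channel for the counter-ion flow of potassium, stood at 659 ± 76.7 CPM in TG against 735 ± 55.3 CPM in WT (SD, n = 4 each). Of 10 genes of the junction and T-tubule, 8 were tested and 0 called, with Tcap, a sarcomere protein that also reaches the T-tubule, at 876 ± 206 and 1141 ± 399.7 CPM (SD, n = 4 each) and Jph1 at a log2 fold change of 0.20 (SE 0.12).

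The regulators of entry and of phosphorylation gave the same count of 0. Of 13 L-type channel subunits and inhibitors 12 were tested, among them Cacna2d1 at 67.7 ± 17.5 CPM in TG against 81.0 ± 21.5 CPM in WT (SD, n = 4 each), and Rrad, an inhibitor of the channel, at a log2 fold change of 0.01 (SE 0.17). All 20 kinases, phosphatases and anchors were tested, and Camk2a, a calmodulin-dependent kinase subunit, had a log2 fold change of 0.20 (SE 0.11) and Pde4d, a phosphodiesterase, 0.17 (SE 0.15). Of 11 genes of the beta-adrenergic pathway 10 were tested, with Gnas, the stimulatory G protein subunit, at 1516 ± 86.9 and 1449 ± 68.6 CPM and Arrb2, a beta-arrestin, at 19.7 ± 3.33 and 24.9 ± 3.60 CPM in TG and WT (SD, n = 4 each). Store-operated entry was covered by 6 tested genes, with Stim1, the reticulum calcium sensor, at a log2 fold change of 0.08 (SE 0.11) and its channel Orai1 at -0.24 (SE 0.14). For the 9 genes of mitochondrial uptake, the uniporter Mcu stood at a log2 fold change of 0.19 (SE 0.11). Between depth classes 43 of these 89 genes passed (edgeR, Benjamini-Hochberg, 22 higher and 21 lower in the shallower libraries), beside the 32.2% of all genes, and with GC and length offsets 2 were higher and 2 lower, where 5.38% of all genes passed. Without the offsets, Cacna2d1 stood on the higher side (log2 difference 0.64, edgeR, adjusted p = 2.46e-04) and Tcap on the lower side (-0.68, adjusted p = 0.00214).

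Reads of genes that overlap a member can be assigned to either. Cep85l, which overlaps Pln, had a mean expected count of 21.9 against 28804 for Pln, and S100a13 had 192 against 8212 for S100a1. For Trdn the overlapping noncoding gene D830005E20Rik had 43.4 against 570, and Dcp1b, which overlaps Cacna1c, had 37.8. Whether the counting used strand is not stated in the labels. Isoforms were summed by gene, with 11 transcripts listed for Cacna1c, 4 for Slc8a1, 3 for Atp2a2, 2 each for Pln and Jph2 and 1 each for the other 5 members.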

How the data were processed

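The 8 deposited tables, 4 of TG and 4 of WT hearts, hold 1 line for each gene number, with expected counts beside FPKM, per the file headers. The expected counts are the authors' estimates of fragments per gene and are not normalized, and the deposited FPKM values are scaled by length and depth. The submitters' processing notes name Bowtie2 and mm8, and no source used here names the counting program. A gene missing from a library's table was taken as 0. Symbols came from the RefSeq gene table of GRCm38.p6, which named 18174 of 18215 gene numbers. Transcript GC content came from GRCm38 transcripts and was had for 16729 of them. No gene coordinates are given, and promoter windows are those of the RefSeq table.

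Counts were rounded, and edgeR 4.0.16 (R 4.3.3) kept 12670 genes (filterByExpr, minimum count 10, minimum total 15). Groups were taken from the titles and compared with the two-sided quasi-likelihood F-test, TMM scaling and group alone, with Benjamini-Hochberg adjustment over all genes and a threshold of 0.05. The SE of a log2 fold change was had from its size and the square root of F. Ratios of FPKM were tested by exact permutation of the 8 libraries. The comparison of depth classes added group as a term. DESeq2 1.42.0, limma 3.58.1 on log2(FPKM + 1) and log2(FPKM + 0.1), other scalings and filters, the replicate block, the depth class and each library left out were alternatives. The GC and length offsets (lowess, span 0.3) and the comparison of depth classes were chosen after seeing the data. Floors of 3 counts cover counting error only, because reads that carry no molecular identifier are not independent.

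The members and lists were chosen with earlier results of these data known. All members are reported. Of each pathway list the rule took the most abundant tested gene and the 2 with the smallest unadjusted p, and the text gives some of these. It also took Carns1 and the 5 genes most like the members' mean profile. Lrrc15, Ryr1 and Ryr3 were named after their values were seen. On simulated counts for TG against WT with 12537 genes in each of 5 runs, the share recovered by edgeR was 29.6% at 1.5-fold, 78.8% at 2-fold and 94.8% at 4-fold, with 46 false among 722 calls. No pair of libraries of a group agreed within sampling noise (smallest chi-square per degree of freedom 4.29 over 13525 genes).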

Additional observations from a re-analysis of the deposited data

How the results depend on the processing

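With any setting tried over all libraries, none of the members passed the threshold between TG and WT (edgeR, DESeq2 and limma, Benjamini-Hochberg), and among the deeper libraries alone 1 did, Trdn. Of 210 values of single members under 21 settings, 187 kept direction and call, 22 turned direction and 1 crossed the threshold. The largest size after a turn was 0.084. Pln, at 0.005, turned to -0.0051 on total counts, -0.014 by limma with either pseudocount (1 or 0.1), -0.00092 with no filter, -0.0026 with the depth class as a covariate, -0.080 in the deeper libraries and -0.011 with GC and length offsets. Casq2 turned to -0.0081 with these offsets, Atp2a2 to 0.039 in the deeper and Trdn to 0.084 and Cacna1c to -0.038 in the shallower libraries. Leaving out 1 library gave -0.081 to 0.090 for Pln, -0.055 to 0.089 for Casq2, -0.50 to 0.0096 for Trdn, -0.026 to 0.16 for Cacna1c and -0.21 to 0.0099 for S100a1, while Slc8a1 ran from 0.089 to 0.30 and Ryr2 from 0.018 to 0.20. It gave -0.02 to 0.07 for the members' median.

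The genes called between TG and WT numbered 15 by DESeq2, 1 by limma with either pseudocount, 4 with no filter, 0 without the Carns1 reads, 28 with the depth class as a covariate, 59 in the deeper and 4 in the shallower libraries, 6 with GC and length offsets and 1 to 3 with 1 library left out. Between depth classes, the genes called fell from 4078 to 660 with the offsets and lay between 2581 and 3690 with 1 library left out, and the members called numbered 1 and 3 to 7. Hrc, at -0.01 there, turned to 0.062 on total counts, 0.063 and 0.064 by limma with a pseudocount of 1 and 0.1, 0.0083 with a mean of at least 5 CPM and 0.13 with the offsets, and lay between -0.034 and 0.015 with 1 library left out. Pln turned to -0.22 and Slc8a1 to -0.12 with the offsets. The ratio of Pln to Atp2a2 turned to -0.12 in the deeper libraries and lay between -0.040 and 0.13 with 1 library left out, and that of Slc8a1 to Atp2a2 between 0.11 and 0.35. The cause was not tested.

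Replicate numbers are shared between groups, and same-numbered libraries correlated at 0.24, -0.28, -0.18 and 0.40 in their deviations from the group means. The 2 libraries numbered 1, and those numbered 4, share a depth class, while those numbered 2 or 3 do not. These correlations therefore cannot decide whether the numbers pair the libraries. With the replicate number as a block, 1 gene and 0 members were called, Pln stood at -0.0035, Trdn at -0.28 and the members' median at 0.01. The ratios of Pln and Slc8a1 to Atp2a2 stood at 0.04 and 0.21 (exact sign-flip p = 0.75 and 0.5). With 4 pairs the sign-flip test cannot give a p under 0.05, so it decides nothing here.

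With 4 libraries per group, 95% intervals of the members' folds ran from 0.60 (Trdn) to 1.42 (Slc8a1) of WT.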
